A study of Mus musculus with 6 samples.

Results

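HDAC1 and HDAC2 are catalytic subunits of several corepressor complexes. The 43 genes described here encode other subunits of Sin3, NuRD, CoREST and MiDAC, and subunits of NCoR, whose deacetylase is HDAC3. They also include the repressor REST and the CtBP proteins that recruit such complexes. They were taken from a fixed list of symbols, and 34 of the 43 have a row in the table used, which holds 12041 symbols. RNA was measured in the cortex of C57BL/6 mouse embryos at embryonic day 12.5, in 3 libraries labelled Hdac1&2 cKO, a conditional double knockout (cKO; HM-5, HM-13 and HM-16) and 3 labelled wild type (WT; HC-10, HC-8 and HC-1). The letters of the column names, HM and HC, are the basis for this grouping of the columns. The question is how RNA levels of these genes compare between cKO and WT. The data hold no measure of protein or of deacetylase activity. The labels give neither the promoter that drives the recombinase nor the deleted exons. Separate embryos are not stated for the 3 libraries in each group. The X-inactivation transcript Xist was high in HM-16 and HC-8 alone (values below), so the 3 libraries of a group were not all technical repeats of 1 sample. The number of embryos behind them is not given, and the p-values speak of the variation among the libraries at hand.

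Histone deacetylases of this class do not bind DNA by themselves, and they act within complexes that other subunits bring to chromatin. Sin3 is built on a large scaffold protein with PHD-finger and chromodomain readers, NuRD joins deacetylation to nucleosome remodelling by CHD ATPases, and CoREST joins it to demethylation of histone H3 by KDM1A. NCoR is best known for holding HDAC3 at genes bound by unliganded nuclear receptors. In the embryonic nervous system, REST with CoREST keeps neuronal genes off in progenitors, and NuRD and Sin3 take part in progenitor proliferation and neuronal differentiation.

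The libraries hold 9712556 to 11922665 recovered reads over the rows of the table. One cKO library, HM-13, stood apart, where ribosomal RNA (Rn45s) took 29.7% of the reads. That share was 0.709% to 0.985% in HM-16 and HM-5 and 0.506% to 2.48% in the WT libraries. The dorsal forebrain factor Emx2 had 263, 184 and 273 FPKM (fragments per kilobase, scaled for depth) in HM-5, HM-13 and HM-16 against 167, 164 and 142 FPKM in the WT libraries in the order HC-1, HC-8, HC-10, so a defining gene of the labelled tissue was present in all 6 libraries. Hdac1 had 45.5, 61.0 and 47.4 FPKM in the same cKO order and 212, 197 and 193 FPKM in the same WT order. Hdac2 had 37.6, 61.7 and 47.5 FPKM in cKO and 134, 216 and 272 FPKM in WT. Hdac1 thus stood at 25.6% and Hdac2 at 23.6% of the WT mean. HM-13 had the highest level of both targeted genes among the cKO libraries.

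Fold changes were fitted with limma on log2(FPKM + 1) for all 9359 symbols that reached 1 FPKM in 3 or more libraries, and 31 of the 34 members were among them. "Rose" and "fell" are used below for a Benjamini-Hochberg adjusted p under 0.05 over all those symbols. By this threshold 7 of the 31 tested members changed (22.6%), against 18.0% of all symbols tested. Higher in cKO were 2 members, where the share over all symbols was 9.62%, and lower in cKO were 5 members, where it was 8.39%. The members' share of calls was thus close to that of all symbols. Before adjustment, 13 of the 31 members and 34.3% of all symbols had a p under 0.05. Sap30l and Ing2, both of Sin3, rose, and the histone chaperone genes Rbbp4 and Rbbp7, the NuRD genes Chd3 and Cdk2ap1 and the NCoR gene Tbl1x fell. All log2 fold changes of the tested members lay between -0.37 and 0.54, and 0 of the 31 reached an absolute value of 1, which 190 of the 9359 symbols did. The median was -0.02 over the members and -0.01 over all symbols.

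The cKO and WT values did not overlap for 16 of the 31 tested members (51.6%), against 39.1% of all symbols tested. The calls by adjusted p depended on single libraries. Members that changed numbered 1 without HM-5, where 5.59% of all symbols tested changed, and 2 without HM-16, where 5.96% did. They numbered 8 without HM-13 (19.4% of all symbols), 2 without HC-1 (12%, 1103 of 9220 symbols), 5 without HC-8 (15.5%) and 2 without HC-10 (9.64%). The members' counts thus moved along with those of all symbols. With each library scaled to its total, which includes the Rn45s reads of HM-13, limma called 0 members and 5.32% of all symbols, with 1 member at an unadjusted p under 0.05. With limma's voom on the recovered reads, 9 members passed, against 20.4% of all symbols.

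**Figure D1:**
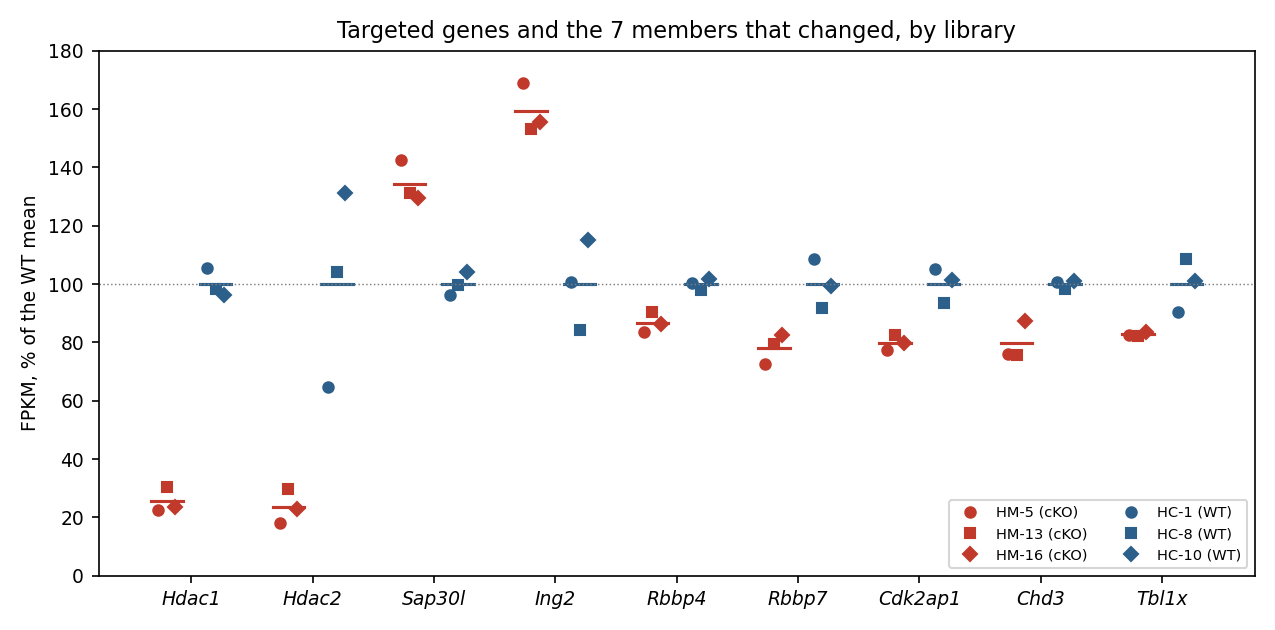
FPKM in each library as a percentage of the WT mean (y axis) for the targeted genes Hdac1 and Hdac2 and the 7 members that changed (x axis), with cKO in red left of WT in blue. Points are libraries and short lines are group means (n = 3 each). The cKO mean stands at 159% of WT for Ing2, 134% for Sap30l and 78.2% to 86.8% for the 5 members that fell.

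The stretches of DNA just before the start of 5 of these genes are printed because they belong to the paralog pairs Sap30l and Sap30, of which the first rose, and Rbbp4 and Rbbp7, which both fell, and to Ing2, the other member that rose. They are the 250 bases before the RefSeq transcript start (GRCm38.p6), written 5′ to 3′ on the strand of the gene. Capitals mark the NF-Y box CCAAT and the Sp/KLF box GGGCGG on either strand. The regions are chr11:57801387-57801636 (plus strand) for Sap30l, chr8:57487861-57488110 (minus) for Sap30, chr8:47675160-47675409 (minus) for Ing2, chr4:129335371-129335620 (minus) for Rbbp4 and chrX:162760122-162760371 (plus) for Rbbp7.
Sap30l: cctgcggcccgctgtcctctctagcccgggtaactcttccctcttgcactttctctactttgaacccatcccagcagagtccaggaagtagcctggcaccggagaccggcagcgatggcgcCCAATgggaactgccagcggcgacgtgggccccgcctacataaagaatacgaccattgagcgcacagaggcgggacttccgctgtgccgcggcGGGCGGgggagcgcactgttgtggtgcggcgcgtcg
Sap30: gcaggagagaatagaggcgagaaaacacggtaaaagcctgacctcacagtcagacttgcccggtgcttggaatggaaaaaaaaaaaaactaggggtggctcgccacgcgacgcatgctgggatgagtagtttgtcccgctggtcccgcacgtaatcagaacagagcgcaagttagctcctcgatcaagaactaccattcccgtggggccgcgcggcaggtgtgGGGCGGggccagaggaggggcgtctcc
Ing2: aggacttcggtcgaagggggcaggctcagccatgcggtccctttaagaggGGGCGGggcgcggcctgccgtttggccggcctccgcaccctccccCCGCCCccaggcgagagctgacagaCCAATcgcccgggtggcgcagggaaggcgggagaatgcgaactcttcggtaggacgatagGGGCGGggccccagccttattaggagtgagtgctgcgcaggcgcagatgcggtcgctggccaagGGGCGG
Rbbp4: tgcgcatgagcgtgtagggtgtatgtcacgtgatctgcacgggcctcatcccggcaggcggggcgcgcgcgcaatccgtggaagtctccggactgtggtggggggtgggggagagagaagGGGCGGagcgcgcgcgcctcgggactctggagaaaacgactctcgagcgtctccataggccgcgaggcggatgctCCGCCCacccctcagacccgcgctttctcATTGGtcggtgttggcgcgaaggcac
Rbbp7: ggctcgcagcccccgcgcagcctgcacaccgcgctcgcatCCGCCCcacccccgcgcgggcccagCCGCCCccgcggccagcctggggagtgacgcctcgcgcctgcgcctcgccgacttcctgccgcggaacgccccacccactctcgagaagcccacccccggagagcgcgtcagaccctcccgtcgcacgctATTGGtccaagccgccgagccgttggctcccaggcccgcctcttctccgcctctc

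Of these windows, GC makes up 65.2% for Sap30l, 58.0% for Sap30, 70.0% for Ing2, 67.6% for Rbbp4 and 76.4% for Rbbp7. RefSeq starts were found for 36 of the 43 members, with 53 windows, whose median GC content was 65.6% and which held a median of 21 CpG dinucleotides. The 7373 windows of all symbols tested had medians of 60.4% and 16. The CCAAT box stood in 50.9% of the member windows, 36.1% of those of the symbols tested and 33.8% of all 32851 windows, and GGGCGG stood in 75.5%, 60.7% and 32.7% of them. Sap30 was the window without CCAAT among the 5 printed, and Ing2 held 4 copies of GGGCGG. An E2F-like box (TTTCCCGC, TTTGGCGC, TTTCGCGC or TTTGCCGC) was in 0 of the 53 member windows and 3.69% of the windows of symbols tested. The ETS box CCGGAAG was in 11.3% against 14.0% and the cyclic AMP response element TGACGTCA in 1.89% against 2.79%, with both strands searched and the letters chosen with the data in view. A match is a description of the letters in the window only.

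In the Sin3 complex, 9 of 13 listed members have a row and all 9 were tested, with the chaperones Rbbp4 and Rbbp7, which Sin3 shares with NuRD, counted apart. Of these, 2 rose and 0 fell with limma, where 9.62% of all symbols rose and 8.39% fell. With voom 3 passed, against 20.4% of all symbols, and 5 were under 0.05 before adjustment, against 34.3%. With the chaperones included, 2 of 11 rose and 2 fell. The median log2 fold change of the 9 was 0.06. The members that rose were an adaptor subunit and a chromatin reader. Sin3a, the main scaffold, and Sap130, Suds3 and Brms1 are not analysed here.

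Sap30l encodes a paralog of SAP30, the subunit that joins SIN3 to other proteins. It had 52.4, 48.3 and 47.6 FPKM in HM-5, HM-13 and HM-16, against 35.4, 36.6 and 38.3 FPKM in HC-1, HC-8 and HC-10. Every cKO library was above every WT library. The means were 49.4 ± 2.60 FPKM in cKO and 36.8 ± 1.47 FPKM in WT (SD, n = 3 each), a 1.34-fold difference (log2 fold change 0.42, SE 0.07, adjusted p = 0.00756 with limma). Its call held whichever of the 6 libraries was omitted (highest adjusted p = 0.0430) and was lost with library totals (adjusted p = 0.557). The row is the protein-coding transcript ENSMUST00000020826 on chromosome 11, 57801637 to 57810217 on the plus strand (GRCm38), with 616 to 918 reads per library.

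Sap30 itself did not pass the threshold. It had 128, 141 and 130 FPKM in HM-5, HM-13 and HM-16, against 164, 146 and 162 FPKM in HC-1, HC-8 and HC-10. The groups did not overlap, but the gap between HM-13 and HC-8 was small. Its means were 133 ± 6.67 FPKM in cKO and 157 ± 9.83 FPKM in WT, and its adjusted p was 0.0513 with limma, just past the threshold. It passed without HM-13 (adjusted p = 0.0410), without HC-8 (adjusted p = 0.0309) and with voom (adjusted p = 0.0485). Sap30l made up 29.0%, 25.6% and 26.8% of the summed FPKM of the pair in HM-5, HM-13 and HM-16, against 17.8%, 20.1% and 19.1% in HC-1, HC-8 and HC-10. The mean share was 27.1% ± 1.74 in cKO and 19.0% ± 1.16 in WT, a difference of 8.13 percentage points (exact permutation test over libraries, two-sided p = 0.1, the smallest that 3 against 3 can give). Each gene has 1 RefSeq mRNA, and the share does not depend on how a library is scaled.

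Ing2 encodes a PHD-finger protein that reads methylated lysine 4 of histone H3 and ties Sin3 to active promoters. It had 5.09, 4.62 and 4.69 FPKM in HM-5, HM-13 and HM-16, against 3.03, 2.54 and 3.47 FPKM in HC-1, HC-8 and HC-10. All 3 cKO libraries lay above all 3 WT libraries, on 91 to 162 reads per library. The means were 4.80 ± 0.255 FPKM in cKO and 3.01 ± 0.466 FPKM in WT, a 1.59-fold difference (log2 fold change 0.54, SE 0.12, adjusted p = 0.0241 with limma). Among the 31 tested members this was the highest log2 fold change. The call was lost when 4 of the 6 libraries were omitted singly, namely HM-5 (adjusted p = 0.101), HM-16 (0.0746), HC-1 (0.0560) and HC-8 (0.0587). The row is ENSMUST00000080353 on chromosome 8, 47667178 to 47675158 on the minus strand.

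Its paralog Ing1, which encodes a reader of the same histone mark, had 7.12, 6.28 and 7.36 FPKM in HM-5, HM-13 and HM-16, against 4.92, 5.99 and 5.62 FPKM in HC-1, HC-8 and HC-10. These values do not overlap either, but the log2 fold change of 0.28 (SE 0.11) gave an adjusted p of 0.119 with limma. A second row of Ing1, on 7 to 28 reads per library, had 0.389 ± 0.0565 FPKM in cKO and 0.681 ± 0.376 FPKM in WT, with overlap. With FPKM summed over the rows of Ing1, the log2 fold change was 0.21 (adjusted p = 0.239 with limma). Ing2 made up 41.0% ± 1.85 of the summed FPKM of the pair in cKO and 35.4% ± 4.86 in WT (exact permutation test, two-sided p = 0.1, n = 3 each). The groups nearly touch, with 38.9% in HM-16 against 38.2% in HC-1 and in HC-10, and the difference of 5.64 percentage points was 2.84 without HC-8. Ing1 has 6 RefSeq mRNAs against 1 for Ing2, so its row may hold a smaller part of the gene's reads.

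Among the other Sin3 genes, Sap18, whose protein also serves in RNA splicing, had 58.0, 60.5 and 61.9 FPKM in HM-5, HM-13 and HM-16, against 70.3, 65.0 and 66.9 FPKM in HC-1, HC-8 and HC-10. The groups did not overlap, and the adjusted p was 0.0995. A second row filed under the same symbol, whose transcript is the separate gene Sap18b of chromosome 8 in GENCODE, had 4.44 ± 0.508 FPKM in cKO and 4.98 ± 0.554 FPKM in WT. Arid4b, a chromodomain partner of the retinoblastoma protein, had 3.11, 4.42 and 2.48 FPKM in cKO against 4.57, 4.85 and 3.85 FPKM in WT (adjusted p = 0.216), and its row is a transcript with a retained intron. Its paralog Arid4a had means of 5.05 ± 0.349 FPKM in cKO and 5.11 ± 0.306 FPKM in WT. Brms1l (adjusted p = 0.746) and the scaffold Sin3b (adjusted p = 0.523) did not pass, and Sin3b was measured on only 83 to 114 reads per library.

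**Figure D2:**
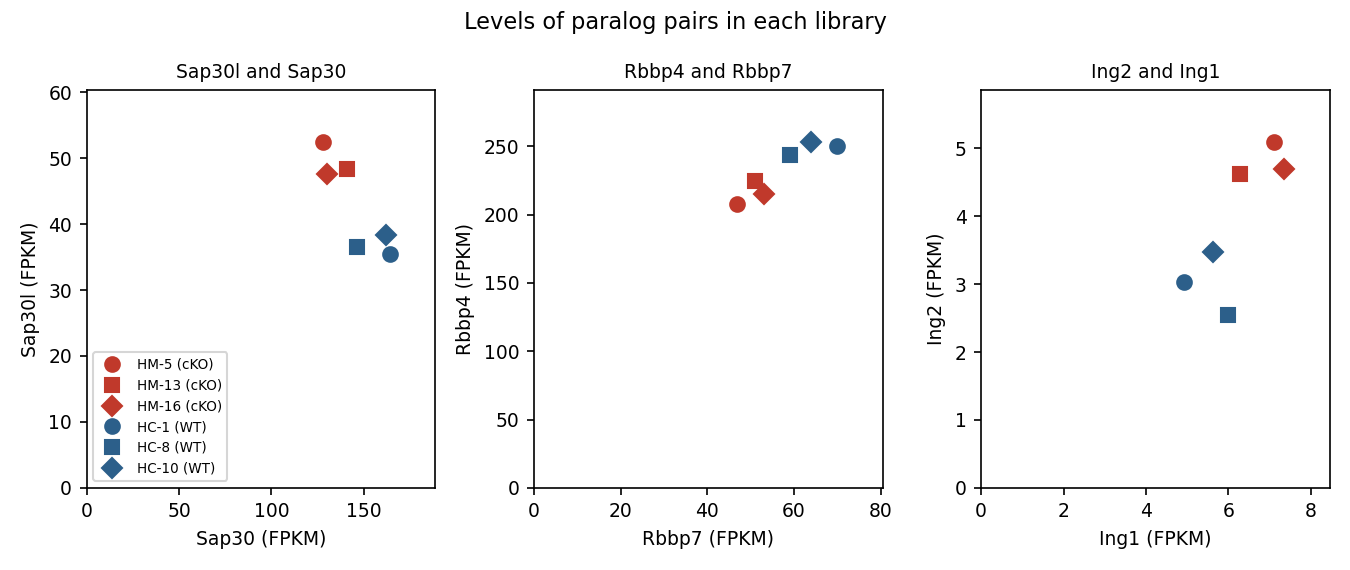
FPKM of Sap30l against Sap30, of Rbbp4 against Rbbp7 and of Ing2 against Ing1 in each library, with cKO in red and WT in blue (n = 3 each). The cKO libraries lie up and to the left of the WT libraries for Sap30l and Sap30, down and to the left for Rbbp4 and Rbbp7, and up and to the right for Ing2 and Ing1.

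Rbbp4 and Rbbp7 encode the WD40 histone chaperones that bind histones H3 and H4 in Sin3 and in NuRD, and also in Polycomb and chromatin assembly complexes. Both fell. Rbbp4 had 208, 225 and 215 FPKM in HM-5, HM-13 and HM-16, against 250, 244 and 253 FPKM in HC-1, HC-8 and HC-10. Each group is tight and they are well apart. The means were 216 ± 8.66 FPKM in cKO and 249 ± 4.47 FPKM in WT, which is 86.8% of WT (SE 0.06 around a log2 fold change of -0.20, adjusted p = 0.0441 with limma). It was the most deeply read member, with 8545 to 13689 reads per library. Even so the call was lost on omitting any of 5 libraries (highest adjusted p = 0.168, without HM-5). It held without HM-13 (adjusted p = 0.0396). After quantile normalization the log2 fold change was -0.07 and the call was lost (adjusted p = 0.287).

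Rbbp7 had 46.8, 51.0 and 53.0 FPKM in HM-5, HM-13 and HM-16, against 69.9, 59.1 and 64.0 FPKM in HC-1, HC-8 and HC-10. All cKO values are below all WT values. The means were 50.3 ± 3.18 FPKM in cKO and 64.4 ± 5.41 FPKM in WT, 78.2% of WT (SE 0.08 around a log2 fold change of -0.35, adjusted p = 0.0260 with limma). The call was lost without HM-5, HM-16, HC-1 or HC-10 (highest adjusted p = 0.106). Rbbp7 lies on chromosome X, 162760402 to 162779092 on the plus strand. The X-inactivation transcript Xist had 105 FPKM in HM-16 and 155 FPKM in HC-8, and at most 0.0943 FPKM in the other 4 libraries. HM-16 had the highest Rbbp7 level of the cKO libraries and HC-8 the lowest of the WT libraries.

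Rbbp7 made up 18.4%, 18.5% and 19.8% of the summed FPKM in HM-5, HM-13 and HM-16, against 21.9%, 19.5% and 20.2% in HC-1, HC-8 and HC-10. The values overlap (exact permutation test, two-sided p = 0.2). Rbbp4 lies on chromosome 4, 129307100 to 129335370 on the minus strand, 181 kb from the targeted gene Hdac1 at 129516104 to 129542713.

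In NuRD, 9 of 11 listed members have a row and 8 were tested, again with Rbbp4 and Rbbp7 counted apart. Of these, 0 rose and 2 fell, where 9.62% of all symbols rose and 8.39% fell. Voom called 2, against 20.4% of all symbols, and 3 were under 0.05 before adjustment, against 34.3%. With the chaperones included, 0 of 10 rose and 4 fell. The median log2 fold change of the 8 was -0.03. The members that fell are an ATPase and a small accessory subunit. The ATPase genes Chd4 and Chd5 are not analysed here, so Chd3 is the 1 remodelling subunit of NuRD with values.

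Chd3 encodes an ATPase that slides nucleosomes within NuRD. It had 70.7, 70.4 and 81.4 FPKM in HM-5, HM-13 and HM-16, against 93.8, 91.4 and 93.9 FPKM in HC-1, HC-8 and HC-10. The WT values are nearly equal, and all cKO values are lower. The means were 74.1 ± 6.25 FPKM in cKO and 93.0 ± 1.41 FPKM in WT, 79.7% of WT (SE 0.07 around a log2 fold change of -0.33, adjusted p = 0.0203 with limma), over 4415 to 8480 reads per library. The call was lost without HM-5 (adjusted p = 0.0907), HC-1 (0.0566) or HC-10 (0.0656).

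A second row of Chd3 also fell. It is the retained-intron transcript ENSMUST00000135909 at the 3′ end of the gene (chromosome 11, 69343273 to 69346019 on the minus strand), within the span of the protein-coding row ENSMUST00000108661 (69343273 to 69369406). It had 4.45, 3.39 and 4.29 FPKM in HM-5, HM-13 and HM-16, against 6.62, 7.68 and 8.11 FPKM in HC-1, HC-8 and HC-10. The groups are far apart for so low a level of 51 to 171 reads. The cKO mean of 4.04 ± 0.573 FPKM was 54.1% of the WT mean of 7.47 ± 0.770 FPKM. In a fit of all 10513 rows that passed the filter, added after the table had been seen, limma gave a log2 fold change of -0.75 with an SE of 0.13 and an adjusted p of 0.00996. The rows overlap, so reads could be split between them, and the difference between their fold changes was not tested. Of 10 further rows of members, 5 could be tested and this was the 1 that passed. Among all 10513 rows in that fit, 1664 passed.

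Cdk2ap1 encodes a small NuRD subunit that also restrains the cell cycle kinase CDK2. It had 312, 332 and 321 FPKM in HM-5, HM-13 and HM-16, against 423, 376 and 408 FPKM in HC-1, HC-8 and HC-10. All cKO values are lower than all WT values. The means were 321 ± 9.98 FPKM in cKO and 402 ± 24.2 FPKM in WT, 79.8% of WT (SE 0.07 around a log2 fold change of -0.32, adjusted p = 0.0169 with limma). It was the member with the highest FPKM. The call was lost without HM-5 (adjusted p = 0.0807), HM-16 (0.0698), HC-1 (0.0526) or HC-10 (0.0602). After quantile normalization the log2 fold change was -0.17 and the call held (adjusted p = 0.0272). The row ENSMUST00000031341 spans 124345417 to 124354671 on the minus strand of chromosome 5.

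The other NuRD genes did not pass. Mta2, which encodes the subunit that binds and activates the deacetylase, had 157, 150 and 164 FPKM in HM-5, HM-13 and HM-16, against 175, 170 and 174 FPKM in HC-1, HC-8 and HC-10. The groups did not overlap, and the cKO mean was 90.4% of WT (SE 0.06 around a log2 fold change of -0.15, adjusted p = 0.114). Gatad2a and Gatad2b, which join the deacetylase part of NuRD to the remodelling part, had cKO means of 131% and 126% of WT with overlapping values (adjusted p = 0.336 and 0.244). Mbd2, which binds methylated DNA, has 2 rows. The one used had 17.7 ± 0.175 FPKM in cKO and 16.7 ± 3.18 FPKM in WT. The other, ENSMUST00000074058, had 12.4, 11.5 and 12.6 FPKM in HM-5, HM-13 and HM-16, against 10.5, 8.70 and 9.34 FPKM in HC-1, HC-8 and HC-10, without overlap (log2 fold change 0.33, adjusted p = 0.0574 in the fit of all rows). Mbd3 (8 to 25 reads per library, adjusted p = 0.289) and Mta3 (28 to 46 reads, adjusted p = 0.622) did not pass, and Mta1 (8 to 36 reads) was under the filter. A second row of Mbd3, on 5 to 23 reads, had 3.09 ± 1.16 FPKM in cKO and 5.54 ± 2.27 FPKM in WT. Its values overlap (adjusted p = 0.154 with limma in the fit of all rows).

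**Figure D3:**
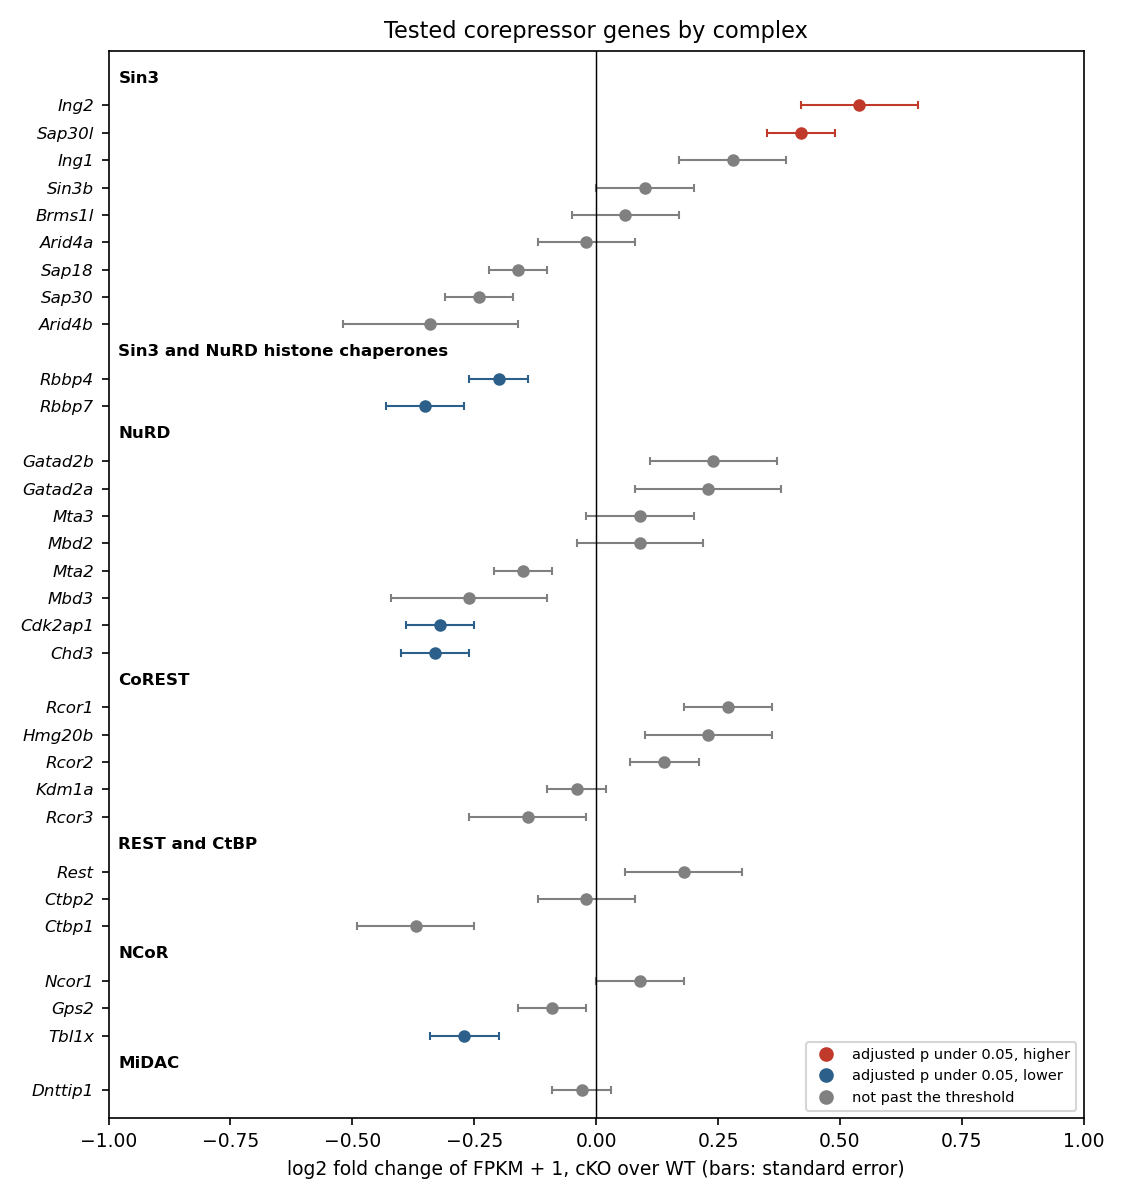
Log2 fold change of FPKM + 1, cKO over WT (x axis), of the 31 tested members grouped by complex. Points are limma estimates and bars their standard errors, red for higher and blue for lower in cKO at an adjusted p under 0.05, and grey otherwise. The estimates run from -0.37 for Ctbp1 to 0.54 for Ing2.

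In CoREST, 6 of 8 listed members have a row and 5 were tested. With limma and with voom 0 passed, against 18.0% and 20.4% of all symbols. Before adjustment 1 was under 0.05, against 34.3% of all symbols. The median log2 fold change was 0.14. The zinc finger genes Zmym2 and Zmym3 are not analysed here, and Phf21a, a reader of unmethylated histone H3, was under the filter with 0.877 ± 0.129 FPKM in cKO and 0.819 ± 0.0930 FPKM in WT.

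Rcor1 encodes the CoREST scaffold that holds the deacetylase and the demethylase together. It had 37.4, 31.6 and 34.6 FPKM in HM-5, HM-13 and HM-16, against 26.7, 30.5 and 28.0 FPKM in HC-1, HC-8 and HC-10. All cKO values lay above all WT values, HM-13 and HC-8 by a narrow margin. The means were 34.5 ± 2.90 FPKM in cKO and 28.4 ± 1.94 FPKM in WT, 122% of WT (SE 0.09 around a log2 fold change of 0.27, adjusted p = 0.0631 with limma). Without HM-13 it passed (adjusted p = 0.0380). In the authors' deposited table its log2 fold change was 0.27 with an FDR of 0.0478. Its paralog Rcor2 had 28.4, 27.3 and 30.7 FPKM in cKO against 26.1, 26.5 and 25.6 FPKM in WT, also without overlap (adjusted p = 0.208).

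Kdm1a, the histone demethylase of CoREST, was level in the groups. It had 141, 135 and 142 FPKM in HM-5, HM-13 and HM-16, against 136, 141 and 152 FPKM in HC-1, HC-8 and HC-10, with full overlap (log2 fold change -0.04, SE 0.06, adjusted p = 0.725). This estimate rests on 3517 to 5412 reads per library. Rcor3 had 1.02 ± 0.127 FPKM in cKO and 1.23 ± 0.202 FPKM in WT (adjusted p = 0.434). Hmg20b, which encodes a DNA-binding subunit, had a cKO mean of 123% of WT with overlapping values (adjusted p = 0.261). The rows used for these 2 genes are transcripts with a retained intron.

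Rest, the repressor that brings CoREST and Sin3 to neuronal genes, had 1.31, 1.12 and 1.09 FPKM in HM-5, HM-13 and HM-16, against 0.959, 1.12 and 0.704 FPKM in HC-1, HC-8 and HC-10. The values overlap, with HM-16 below HC-8. The log2 fold change of 0.18 (SE 0.12) did not pass on 32 to 63 reads per library (adjusted p = 0.358 with limma). Ctbp1, a corepressor that links zinc finger repressors to CoREST, had 2.57, 2.98 and 3.43 FPKM in HM-5, HM-13 and HM-16, against 4.47, 3.95 and 4.05 FPKM in HC-1, HC-8 and HC-10. All cKO values were lower, and the cKO mean was 72.1% of WT. Its log2 fold change of -0.37 (SE 0.12) was the lowest of the tested members, with an adjusted p of 0.0717 with limma and 0.0493 with voom. By mean FPKM without the pseudocount, Mbd3 stood lower, at 68.7% of WT on 8 to 25 reads per library. Ctbp2 had 1.37 ± 0.0446 FPKM in cKO and 1.41 ± 0.0757 FPKM in WT (adjusted p = 0.915).

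In NCoR, 3 of 4 listed members have a row and were tested. Of these 0 rose and 1 fell, where 9.62% of all symbols rose and 8.39% fell. Tbl1x encodes the WD40 subunit that contacts histones and the NCoR scaffold. It had 73.0, 72.7 and 74.1 FPKM in HM-5, HM-13 and HM-16, against 80.1, 96.0 and 89.5 FPKM in HC-1, HC-8 and HC-10. The cKO values are nearly equal and the WT values spread, with HC-1 nearest to cKO. The means were 73.3 ± 0.746 FPKM in cKO and 88.5 ± 7.99 FPKM in WT, 82.8% of WT (SE 0.07 around a log2 fold change of -0.27, adjusted p = 0.0466 with limma). The call was lost on omitting any of 5 libraries (highest adjusted p = 0.143, without HM-5), and held without HC-1 (adjusted p = 0.0272). It was also lost after quantile normalization (adjusted p = 0.121). The gene is X-linked (77511013 to 77662983, plus strand), and the Xist-positive libraries HM-16 and HC-8 had the highest value of each group. Its paralog Tbl1xr1 is not analysed here.

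The NCoR scaffold gene Ncor1 had 7.13, 7.29 and 6.79 FPKM in HM-5, HM-13 and HM-16, against 6.92, 6.40 and 6.36 FPKM in HC-1, HC-8 and HC-10 (adjusted p = 0.515). Gps2, a small subunit that restrains JNK signalling, had 35.3 ± 1.20 FPKM in cKO and 37.6 ± 1.94 FPKM in WT (adjusted p = 0.380). The deacetylase of this complex, Hdac3, is not one of the 43. Its means were 58.9 ± 1.56 FPKM in cKO and 59.6 ± 2.33 FPKM in WT (adjusted p = 0.885).

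MiDAC, the deacetylase complex of mitotic cells, is represented by Dnttip1, which holds its deacetylases together. It had 52.1, 53.9 and 54.9 FPKM in HM-5, HM-13 and HM-16, against 51.6, 55.8 and 57.3 FPKM in HC-1, HC-8 and HC-10. The values overlap (log2 fold change -0.03, SE 0.06, adjusted p = 0.758). Trerf1, the other listed subunit, was under the filter with at most 0.281 FPKM in cKO and 0.328 FPKM in WT.

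What a row holds differed among the members. Row lengths implied by the values are known only up to a constant, which was set by their median ratio to the transcript lengths. So scaled, they were within 10% of the GENCODE transcript named in the row for 70.8% of 13116 rows. Many rows may thus stand for a transcript and not for a whole gene. For genes with only 1 transcript a match cannot tell these apart, and the rows were not split by transcript number. The 15 members with 1 RefSeq mRNA had a median of 57.3 FPKM, and the 19 with 2 or more had a median of 2.25 FPKM. Over all symbols these medians were 10.4 and 1.90 FPKM. Of the 9 members that are not analysed here, 8 have 2 or more RefSeq mRNAs. All 7 members that changed have 1. Among tested members the median read number per library was 1420 for the 15 with 1 mRNA and 132 for the 16 with 2 or more, and the median SE was 0.07 and 0.12 on the log2 scale. Over all symbols tested, 21.8% of those with 1 mRNA and 14.4% of those with 2 or more changed. How reads shared by several transcripts were counted is not given in the sources used here, so levels of members with different numbers of mRNAs are not a measure of how much of each subunit the cells make.

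**Figure D4:**
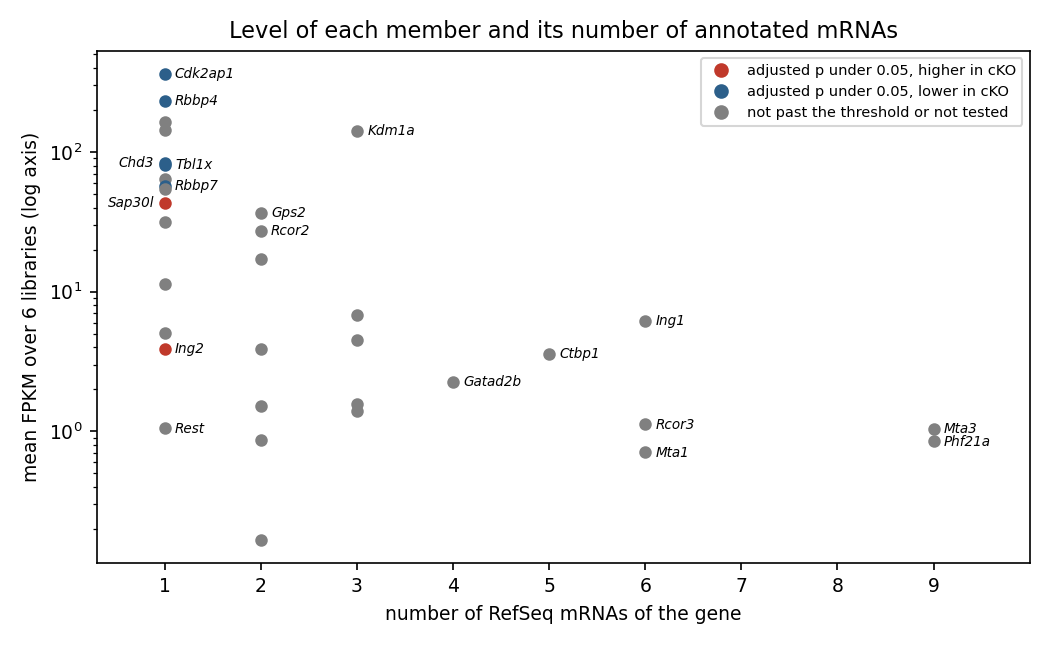
Mean FPKM over the 6 libraries (log y axis) of the 34 members with a row, against the number of RefSeq mRNAs of the gene (x axis). Each point is a gene, red if higher and blue if lower in cKO at an adjusted p under 0.05, and grey otherwise. Members with 1 mRNA reach 362 FPKM (Cdk2ap1) and include all 7 that changed.

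The cKO library nearest to the WT mean was HM-13 for 16 of the 31 tested members, HM-16 for 13 and HM-5 for 2. Over all symbols tested it was HM-13 for 46.2%, HM-16 for 27.6% and HM-5 for 26.2%. Among the 7 that changed it was HM-13 for 3 and HM-16 for 4. Over all 1685 symbols that changed it was HM-13 for 61.4%, HM-16 for 23.8% and HM-5 for 14.8%. Without HM-5, Sap30l alone among the 7 kept its call.

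**Figure D5:**
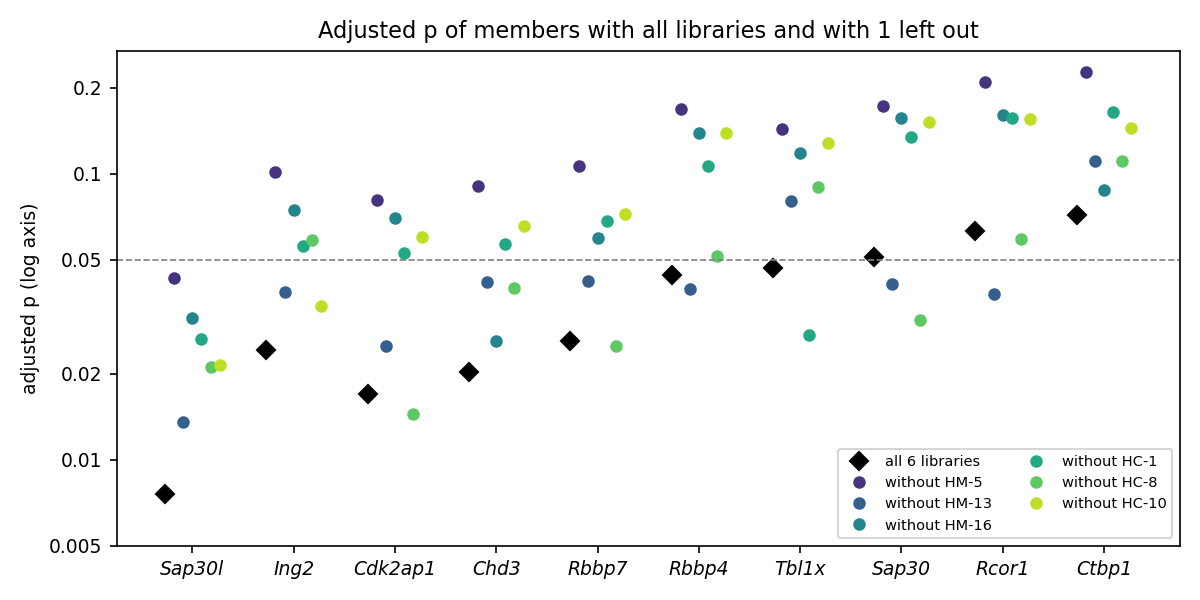
Adjusted p from limma (log y axis) for the 7 members that changed and for Sap30, Rcor1 and Ctbp1 (x axis), with all 6 libraries (black diamonds) and with 1 library left out (coloured points); the dashed line is 0.05. Sap30l stays under the line in every fit, at most 0.0430, and Rcor1 and Sap30 fall under it without HM-13.

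In the authors' deposited table, 31 of the 34 rows used carry an FDR, and it was under 0.05 for 8 of them, against 19.3% of the rows with an FDR. These were the 7 members above and Rcor1. The authors' log2 fold changes in that table were 0.41 for Sap30l and 0.59 for Ing2, and ran from -0.34 for Rbbp7 to -0.20 for Rbbp4 among the members that fell.

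Among other corepressor and recruiting genes, 45 symbols were listed, 32 had a row and 23 were tested. Of these 3 rose and 0 fell with limma, 3 passed with voom and 8 were under 0.05 before adjustment. Over all symbols 18.0% changed, 9.62% rose, 8.39% fell and 34.3% were under 0.05 before adjustment. The share of these 23 genes that changed was thus below that of all symbols, and the share that rose was somewhat above it, on 3 genes. The median log2 fold change was 0.04. Zfpm1, which rose, encodes a GATA cofactor that recruits NuRD. It had 20.2, 17.0 and 23.5 FPKM in HM-5, HM-13 and HM-16, against 8.40, 5.42 and 4.77 FPKM in HC-1, HC-8 and HC-10. The groups lie far apart, at 3.27-fold (log2 fold change 1.58, SE 0.20, adjusted p = 0.00374). Mnt, a MAX partner that recruits Sin3, had 28.5 ± 4.79 FPKM in cKO and 20.2 ± 0.282 FPKM in WT (adjusted p = 0.0331, lost on omitting any of 5 libraries). Nr2e1, an orphan receptor of neural stem cells that works with KDM1A, had 54.7 ± 4.53 FPKM in cKO and 41.7 ± 4.89 FPKM in WT (adjusted p = 0.0375, lost on omitting any of 4). The call of Zfpm1 held in all 6 (highest adjusted p = 0.0272).

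Marker levels of other cells are given because bulk tissue cannot tell fewer cells of a type from less RNA per cell. Of all symbols tested, 18.0% changed with limma (9.62% rose and 8.39% fell), and 20.4% passed with voom. Before adjustment, 34.3% were under 0.05. The marker lists are short, so a count of 0 does not show that cell numbers were alike. Of 6 tested microglia and macrophage genes 2 rose (C1qb and Tyrobp) and 4 were under 0.05 before adjustment, and their summed level was 69.1 to 81.0 FPKM in cKO and 51.1 to 62.6 FPKM in WT over the 6 of 10 with a row. Of 13 tested neuronal genes 2 rose (Nefl and Nefm) and 0 fell with limma, 4 passed with voom and 6 were under 0.05 before adjustment. Apart from Nefl and Nefm, every tested gene of this list had a negative log2 fold change, and the median was -0.33. Stmn2 and Gap43 had -0.62 and -0.63 without overlap (adjusted p = 0.0617 and 0.0666 with limma). The neuronal list summed to 939 to 1370 FPKM in cKO and 1248 to 1650 FPKM in WT. Of 8 tested radial glia genes 1 rose (Emx2) and 1 fell (Fabp7), 7 were under 0.05 before adjustment and the median log2 fold change was 0.26. Sox2, Hes1, Hes5, Sox9 and Notch1 had log2 fold changes of 0.22, 0.28, 0.27, 0.24 and 0.37, and Vim had -0.07, all without passing. Under the filter, Slc1a3, Prom1 and Nes had cKO means of 64.4%, 61.5% and 98.9% of WT with overlapping values. The radial glia list summed to 2862 to 3179 FPKM in cKO and 3261 to 3514 FPKM in WT. Within it, Fabp7 had means of 311 FPKM in cKO and 825 FPKM in WT, and Vim 1702 and 1774 FPKM. Of 10 tested genes of intermediate progenitors 0 rose and 1 fell (Btg2) with limma, and 2 passed with voom. Before adjustment 4 were under 0.05, and the median log2 fold change was -0.27. Neither limma nor voom called a gene (0 each) in these lists, with the number under 0.05 before adjustment in brackets: ventral telencephalon, 4 genes (0), Cajal-Retzius neurons, 4 (2), choroid plexus with cortical hem, 6 (0), vessels, 4 (0), mesenchyme with meninges, 7 (0), red cells, 6 (0), and surface ectoderm, 3 (1). Summed levels of the ventral list were 35.4 to 62.7 FPKM in cKO and 28.9 to 94.6 FPKM in WT, and those of the erythroid list 16593 to 24364 FPKM in cKO and 14566 to 19595 FPKM in WT. Single libraries differed widely within a group. The choroid plexus gene Ttr had 118, 145 and 0.0769 FPKM in HC-1, HC-8 and HC-10, against 64.5, 68.4 and 27.1 FPKM in HM-5, HM-13 and HM-16. The list of choroid plexus with cortical hem summed to 151 to 185 FPKM in cKO and 34.7 to 299 FPKM in WT. Gad2, of the ventral list, had 0.0314, 2.37 and 4.65 FPKM in the same cKO order and 0.727, 6.08 and 7.54 FPKM in the same WT order. No marker with a row was at 0 in all libraries. The part of these differences in the members' changes was not tested.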

How the data were processed

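Per the submitters' processing notes, the tools were DESeq2 1.22.1 under R 3.4.1, featureCounts 1.6.1, STAR 2.5.4b and bcl2fastq 1.8.4, and the build mm10; the annotation is not given in the sources used here. Per the file headers, the table holds FPKM for 6 libraries, with the FDR, p-value and log2 fold change that the authors obtained. A pooled signal per row in the deposited table is the mean over libraries of counts divided by size factors. Columns named HM were read as cKO and HC as WT from the letters alone, and no column is tied to a replicate number.

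FPKM times that pooled signal over the row's mean FPKM, divided by the value of 1 read fitted in each library, gave whole reads (within 0.001) for 100% of values; size factors run from 0.804 to 1.19. Of several rows of a symbol, the one with the highest mean normalized count was used. Log2(FPKM + 1) was fitted with limma 3.58.1 (R 4.3.3), with an intensity trend and group as the only term, and tested on simulated data. Because of the pseudocount, log2 fold changes understate those of low genes. Members and lists were chosen with earlier results of these data known. Named are members with an unadjusted p under 0.05, the highest member of each complex, and paralogs of changed members; others are given by level. Of non-members, Hdac1, Hdac2 and changed genes of the other corepressors are named; Hdac3, Xist and the marker genes were chosen after their values were seen. Positions are those of GENCODE M21 (GRCm38). Sequences are from RefSeq (GRCm38.p6).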

Additional observations from a re-analysis of the deposited data

How the results depend on the processing

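No paired analysis was possible because the columns carry no replicate numbers of the labels, so a replicate block could not be set. Both members that rose and all 5 that fell kept their calls with pseudocounts of 0.1 and 5 and with FPKM summed over the rows of a symbol. With library totals as scaling, 497 of all symbols changed instead of 1685, and 0 members rose and 0 fell; the cause was not tested. Without the filter 3 members fell and without the intensity trend 2 fell, with 2 higher in each; the cause was not tested. Rbbp4 and Tbl1x lost their calls without the filter (adjusted p 0.0552 and 0.0539), without the trend (0.104 and 0.0886) and after quantile normalization (0.287 and 0.121), and Rbbp7 without the trend (0.0509). With 1 library left out, all symbols that changed numbered 511 to 1773, members that rose 1 to 3 and members that fell 0 to 5. Kdm1a changed sign after quantile normalization (log2 fold change 0.05) and without HC-10 (0.01; range over omitted libraries -0.07 to 0.01), in neither case past the threshold. Of 225 values of the 15 named members under these settings, 177 kept direction and side of the threshold, 40 lost their call, 6 gained one and 2 changed sign. All 40 losses fell on the members that rose or fell in the main fit. The rest of the 15 had no call to lose, so the 177 overstate how stable the calls were.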
